A study of Mus musculus with 6 samples.

Results

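The genes described here are the cyclin-dependent kinase (CDK) inhibitors Cdkn2a, Cdkn2b, Cdkn2c, Cdkn2d and Cdkn1b and the D and E cyclins Ccnd1, Ccnd2, Ccnd3, Ccne1 and Ccne2. They were taken as every probe of the array table that the platform annotation names after 1 of these 10 genes, which gave 23 of 45281 probes, and 10 of 19057 annotated genes. RNA came from mouse embryonic fibroblasts, which are cultured from dissociated embryos, on a mix of the strains 129SV and C57BL/6. There were 3 arrays of Lpar6-/- cells (knockout, columns D to F) and 3 arrays of Lpar6+/+ cells (wild type, columns A to C). Lpar6 encodes a receptor for the lipid signal lysophosphatidic acid, and the gene lies within an intron of Rb1. No treatment is given for either group. The groups follow the genotype labels, although the series title calls the cells a knock-down. The labels do not say whether arrays of a genotype stem from separate embryos, cultures or cell lines. The p-values therefore rest on array-to-array spread alone, and that spread may be technical.

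D cyclins bind CDK4 and CDK6 and E cyclins bind CDK2, and these kinases phosphorylate the retinoblastoma protein in G1, which releases E2F transcription factors and opens S phase. The Ink4 inhibitors (Cdkn2a to Cdkn2d) bind CDK4 and CDK6 and keep D cyclins off, while the Cip/Kip inhibitor p27 (Cdkn1b) holds cyclin E with CDK2. In cultured mouse embryonic fibroblasts the Cdkn2a locus is known for its rise with passage, when cells approach senescence.

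The Lpar6 probe checked the genotype labels: its intensities were 76.7, 77.9 and 76.0 on the knockout arrays, not above background on any of them, and 1373, 1223 and 1278 on the wild-type arrays. At a detection p below 0.05, 19006 to 19249 probes were detected on knockout arrays and 19646 to 20137 on wild-type arrays. The 75th percentile of the intensities was 161 to 166 on knockout arrays and 176 to 193 on wild-type arrays. Across kept probes the arrays correlated at 0.993 to 0.994 within the knockout, 0.995 within the wild type and 0.966 to 0.968 between genotypes. Of 12 kept fibroblast marker genes, each by its brightest kept probe, 9 were higher in the knockout and none lower. Among all genes, 20.6% were higher and 19.1% lower. The other kept Col3a1 probe was not called higher, while the 3 other kept Dcn probes were and the counted one was not. Postn was not detected on any array. The summed background-corrected level of the 12 genes was 67850 to 69890 on knockout arrays and 42900 to 46060 on wild-type arrays.

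Over the 10 genes, the inhibitor gene Cdkn2c and the E cyclin gene Ccne1 were higher in the knockout, and the D cyclin gene Ccnd2 was lower. The E cyclin gene Ccne2 passed as higher too, but its call was lost under 9 of 16 alternatives. The D cyclin gene Ccnd3 was higher by 1 of its 2 tested probes, not the brightest. Of the 23 probes, 15 were detected on at least 3 of the 6 arrays and were tested, for 9 genes; the other 8, among them all 3 probes of Cdkn2a, were not. Of the 15 tested probes, 5 were higher, 3 were lower and 7 did not pass limma's test at an adjusted p of 0.05 over all 19802 kept probes. Over all kept probes, 37.9% passed (19.3% higher and 18.6% lower), so that 8 of 15 (53.3%) stood beside a background in which changes were common. With each gene given by its brightest kept probe, 3 of 9 genes were higher and 1 lower, or 44.4%, beside 39.7% of all genes (20.6% higher and 19.1% lower). That share was near the background. The median log2 change of the 15 probes was 0.23, against 0.020 for all kept probes. The normalized values of the 2 genotypes did not overlap in 14 of the 15 probes, where 50.3% of all kept probes had no overlap. In the uncorrected intensities 6 of the 15 did not overlap, beside 50% of all kept probes. The count depended on the scaling: median scaling in place of quantile normalization called 4 of the 15, 2 higher and 2 lower, and leaving out wild-type array C called 5. Median scaling moved the median change of the 15 probes to 0.13, that of all kept probes to -0.095 and their split to 2227 higher and 5026 lower, in place of 3819 higher and 3691 lower.

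**Figure D1:**
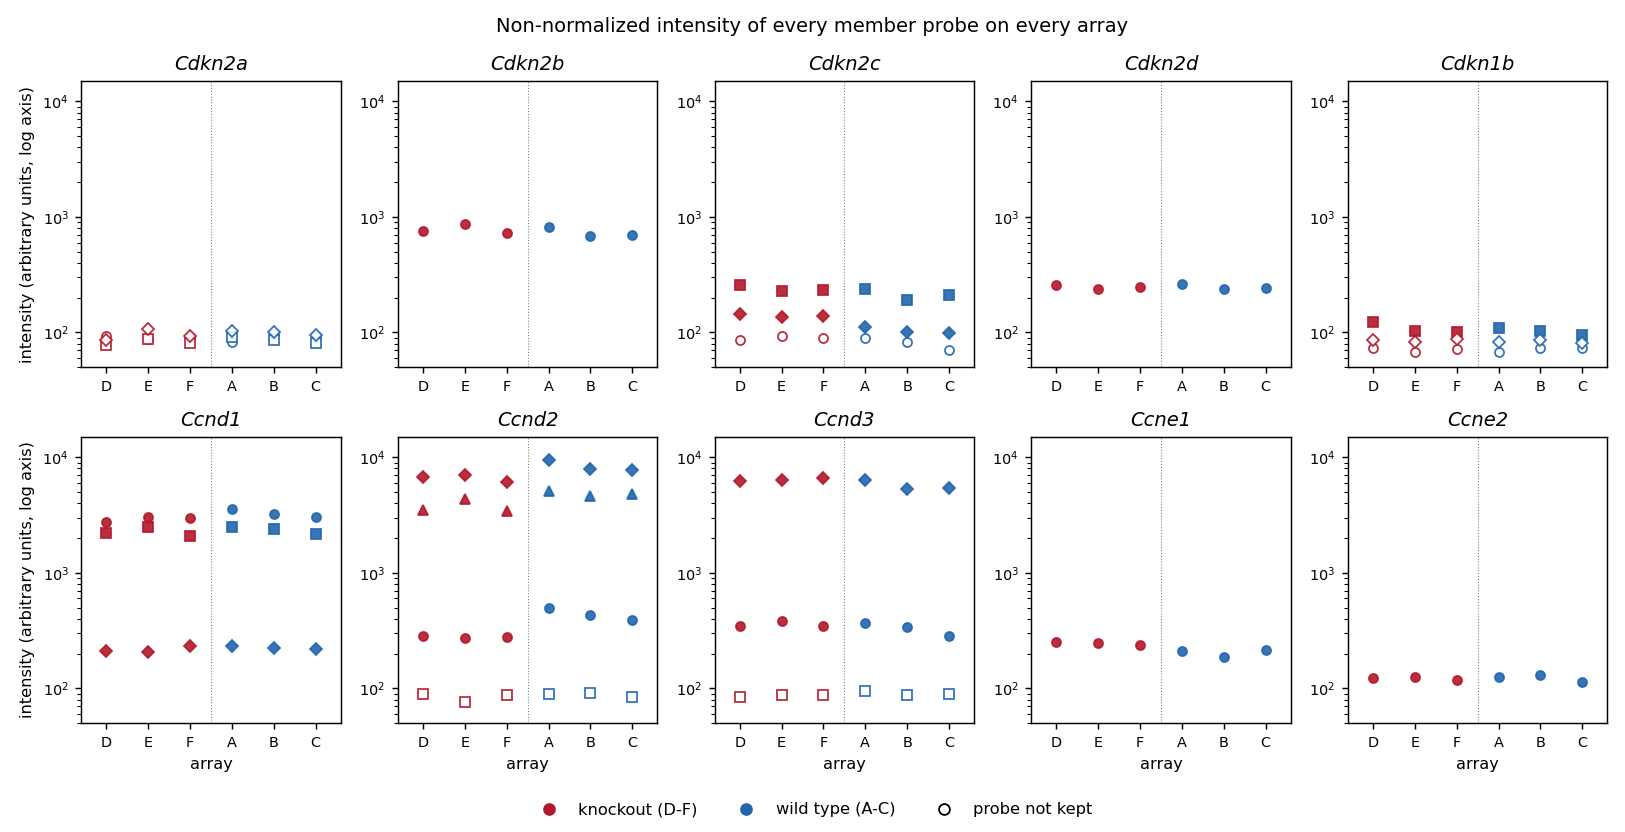
Non-normalized intensity (arbitrary units, log axis) of every probe of the 10 genes on the 3 knockout arrays (D to F, red, left) and the 3 wild-type arrays (A to C, blue, right); each symbol shape is 1 probe, and open symbols are the 8 probes that did not pass the detection filter. The 3 Cdkn2a probes lie between 78.1 and 106 on all arrays, and the 3 tested Ccnd2 probes are lower on every knockout array than on every wild-type array.

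Cdkn2a was at or near background on the arrays of both genotypes. The gene gives rise to the CDK4 and CDK6 inhibitor p16Ink4a and, from a separate first exon read in another frame, to p19Arf, which holds back the p53 ligase Mdm2. The first probe annotated to the p19Arf transcript (ILMN_1221177) had intensities of 93.6, 87.9 and 92.1 on the knockout arrays and of 82.3, 97.2 and 90.5 on the wild-type arrays. The second (ILMN_1226950) had 78.1, 87.6 and 81.8 on the knockout arrays and 91.5, 85.9 and 81.8 on the wild-type arrays. Neither was detected on any of the 6 arrays, with detection p from 0.067 to 0.846, and the genotypes overlapped. The probe annotated to the p16Ink4a transcript (ILMN_1227342) had 86.8, 106 and 93.1 on the knockout arrays and 103, 102 and 95.7 on the wild-type arrays. It was detected on knockout array E and on wild-type array A, and on none of the others, and its values overlapped too. Without the detection filter the changes of the 3 probes were 0.16, 0.0033 and 0.059, with limma adjusted p of 0.499, 0.990 and 0.907. A difference was not detectable at these intensities. Because the transcripts share their later exons, a probe named after 1 of them need not be specific to it.

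Both start sites of the gene are shown because they serve different proteins. The sequences are the 250 bases before each start from RefSeq's table of GRCm38.p6, which holds a window for 7 of the 10 genes. These 250 bases, and the same stretch before every other start, were searched on both strands for the E2F consensus TTTCCCGC, TTTCGCGC, TTTGCCGC or TTTGGCGC and for its core, the same letters without the first T; every full match thus holds a core match. Capitals mark a core match.
Cdkn2a, start of p19Arf, chr4:89294620-89294869, minus strand: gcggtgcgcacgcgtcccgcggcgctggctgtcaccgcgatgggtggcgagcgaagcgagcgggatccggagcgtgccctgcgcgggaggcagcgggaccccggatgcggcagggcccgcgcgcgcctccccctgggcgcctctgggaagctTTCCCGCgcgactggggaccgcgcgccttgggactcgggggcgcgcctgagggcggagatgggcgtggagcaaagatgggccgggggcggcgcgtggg
Cdkn2a, start of p16Ink4a, chr4:89282193-89282442, minus strand: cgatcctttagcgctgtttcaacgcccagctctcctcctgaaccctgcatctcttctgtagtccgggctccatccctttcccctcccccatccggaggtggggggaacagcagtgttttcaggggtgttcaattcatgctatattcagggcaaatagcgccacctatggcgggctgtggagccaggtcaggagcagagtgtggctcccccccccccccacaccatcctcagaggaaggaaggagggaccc
The p19Arf start lies 12427 bases before that of p16Ink4a on the transcribed strand. Its window was 78.4% G and C, more than 98.1% of all windows, and held 1 core match that starts 98 bases before the start site. The p16Ink4a window was 60% G and C and held none. A core match stood in 2 of the 10 windows of these genes and in 7.89% of 32851 windows of all genes. The full consensus stood in 1 of the 10, that of p19Arf, and in 1.86% of all windows. Matches are given as letters of the sequence and do not show binding.

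Cdkn2b, the neighbour of Cdkn2a on chromosome 4 and the gene of the inhibitor p15Ink4b, was detected on all 6 arrays. Its single probe had intensities of 755, 863 and 719 in the knockout and of 821, 684 and 693 in the wild type, which overlapped. After normalization the log2 levels were 9.55, 9.66 and 9.42 in the knockout and 9.36, 9.23 and 9.28 in the wild type, with all knockout arrays above all wild-type arrays. The change of 0.26 ± 0.097 (SE, n = 3 arrays each) missed the threshold (limma adjusted p = 0.0626). It passed under 7 of 16 alternatives, among them the authors' own log2 values (0.24, adjusted p = 0.0132), and under median scaling it was 0.15 with an adjusted p of 0.357. Cdkn2d, which encodes the inhibitor p19Ink4d, had log2 levels of 7.72, 7.48 and 7.60 in the knockout and of 7.38, 7.31 and 7.41 in the wild type. The raw intensities overlapped (259, 236 and 245 in the knockout, 265, 239 and 242 in the wild type). Its change of 0.23 ± 0.096 did not pass (adjusted p = 0.0833), nor did it under any of 16 alternatives; under median scaling it was 0.059.

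Cdkn2c, the gene of the inhibitor p18Ink4c, was the 1 CDK inhibitor among these genes that passed. The probe annotated to its RefSeq transcript (ILMN_1228366) had log2 levels of 7.73, 7.43 and 7.52 on the knockout arrays, against 7.16, 6.82 and 7.12 on the wild-type arrays. All 3 knockout values lay above the wild-type values, although the raw intensities overlapped (259, 230 and 234 in the knockout, 237, 193 and 211 in the wild type). The change was 0.52 ± 0.12 (limma adjusted p = 0.0087), and it missed the threshold under median scaling (0.34, adjusted p = 0.067). The probe annotated to a cDNA clone of the gene (ILMN_2420939) had intensities of 144, 137 and 139 in the knockout and of 112, 102 and 98.7 in the wild type, with no overlap before or after normalization. Its change was 1.30 ± 0.11 (adjusted p = 2.14e-05). It was detected on only 2 of the 3 wild-type arrays, so the size is uncertain. The change was 0.40 without background correction (quantile-normalized log2, offset 50) and 0.56 in the authors' values. It passed under all 15 alternatives that could test it. The third probe was not detected on any array. The window before the outer start of the gene is shown because it is the 1 window among the tested genes with an E2F core match, in capitals, 25 bases before the start.
Cdkn2c, outer start, chr4:109666757-109667006, minus strand: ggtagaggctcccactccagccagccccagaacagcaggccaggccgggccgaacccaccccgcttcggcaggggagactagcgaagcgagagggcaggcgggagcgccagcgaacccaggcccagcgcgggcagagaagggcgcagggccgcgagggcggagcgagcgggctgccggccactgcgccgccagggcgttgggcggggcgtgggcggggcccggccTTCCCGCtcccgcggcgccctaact
It was 77.2% G and C, more than 97.4% of all windows, and the window of a second start of the gene held no match.

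Cdkn1b, which encodes p27Kip1, was dim. Of its 3 probes 2 were not detected on any array. The third (ILMN_2638428) had intensities of 123, 103 and 100.03 in the knockout, where it was detected on all 3 arrays, and of 109, 104 and 95.4 in the wild type, where it was detected on 1. Knockout array D stood above the other 5 arrays. The change of 0.49 ± 0.18 missed the threshold (adjusted p = 0.0536) and passed under 6 of 15 alternatives, with adjusted p from 0.0325 to 0.143 over all of them. The change was 0.27 without knockout array D, 0.13 without background correction (quantile-normalized log2, offset 50) and 0.19 in the authors' values. The protein p27 is regulated largely through its degradation, which these arrays do not measure.

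**Figure D2:**
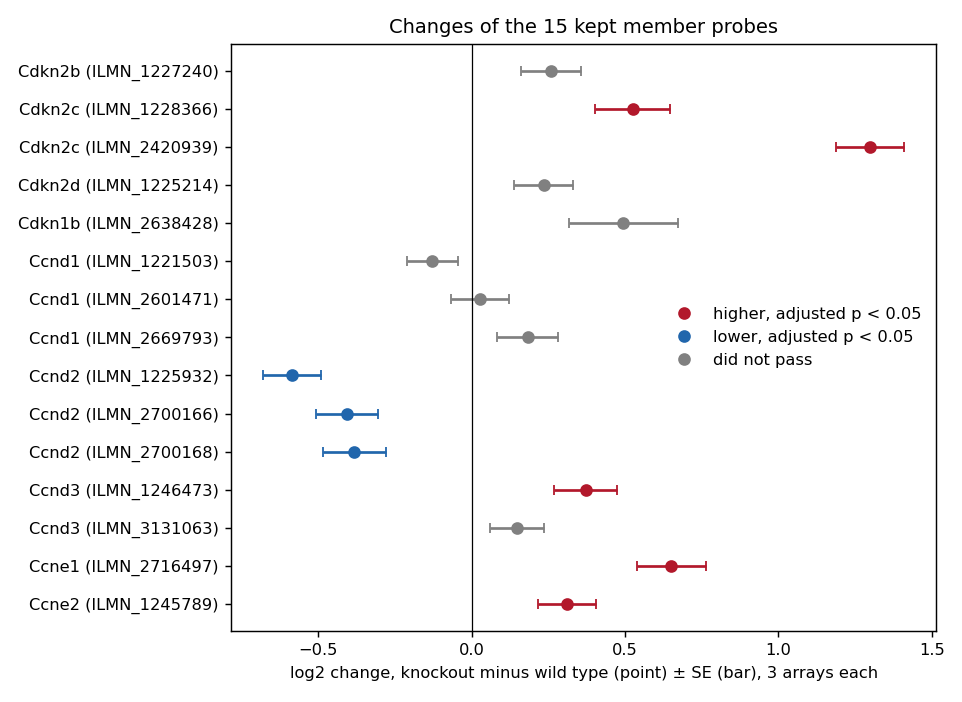
Log2 change (knockout minus wild type, points) with its standard error (bars) for the 15 tested probes, 3 arrays in each genotype; red points were higher and blue points lower at a limma adjusted p below 0.05, and grey points did not pass. The 3 Ccnd2 probes lie between -0.59 and -0.38, and the largest rise is that of the Cdkn2c probe at 1.30.

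Among the D cyclins, Ccnd2 fell, Ccnd1 did not pass, and Ccnd3 rose by 1 of its 2 tested probes. The brightest Ccnd2 probe (ILMN_2700166) had intensities of 6793, 6947 and 6110.2 in the knockout, against 9439, 7922 and 7819 in the wild type. Every knockout array was below every wild-type array, and the change was -0.41 ± 0.10 (limma adjusted p = 0.0114). The second probe (ILMN_2700168) had 3477, 4348 and 3412 in the knockout and 5098, 4635 and 4802 in the wild type, again without overlap, with a change of -0.38 ± 0.10 (adjusted p = 0.0168). The third (ILMN_1225932), annotated to a cDNA clone, had 286, 275 and 280.2 in the knockout and 491, 432 and 393 in the wild type, with a change of -0.59 ± 0.094 (adjusted p = 0.0011). So 3 probes of the gene moved the same way, and the fourth was not detected on any array. The third probe passed under all 16 alternatives. The brightest missed the threshold under median scaling (-0.30, adjusted p = 0.0635), and the second without wild-type array C (-0.34, adjusted p = 0.0624) or knockout array F (-0.31, adjusted p = 0.0536). In bulk RNA, fewer cells of a type that carries a transcript and less of it per cell cannot be told apart. On the same arrays neuronal markers (10 of 10 tested) and cartilage markers (9 of 10) were lower; their part in the fall of Ccnd2 was not tested.

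Ccnd1, the D cyclin induced by growth factors, had 3 tested probes, none of which passed. The brightest (ILMN_1221503) had intensities of 2751, 3010 and 2988 in the knockout and of 3551, 3208 and 3045 in the wild type, with no overlap. After normalization its change was -0.13 ± 0.082 (adjusted p = 0.253). The second probe changed by 0.027 ± 0.094 (adjusted p = 0.849), and its genotypes overlapped. The third changed by 0.18 ± 0.099 (adjusted p = 0.180), and by 0.0051 under median scaling. Its raw intensities overlapped (212, 208 and 231 in the knockout, 231, 222 and 220 in the wild type). After normalization the 3 probes thus differed in sign, and none passed under any of 16 alternatives.

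Ccnd3 gave different results for its 2 tested probes, which are annotated to different transcripts of the gene. The dimmer probe (ILMN_1246473) had log2 levels of 8.26, 8.35 and 8.23 in the knockout and of 7.99, 7.99 and 7.74 in the wild type, and its change of 0.37 ± 0.10 passed (adjusted p = 0.0179). Its raw intensities overlapped (347, 381 and 344 in the knockout, 367, 337 and 286 in the wild type). The call was lost under median scaling (0.22, adjusted p = 0.192), without wild-type array C (adjusted p = 0.0636) and without knockout array E (adjusted p = 0.0579). The brighter probe (ILMN_3131063) had log2 levels of 12.67, 12.55 and 12.63 in the knockout and of 12.51, 12.41 and 12.49 in the wild type. The values did not overlap, but the change of 0.15 ± 0.087 did not pass (adjusted p = 0.213). The last probe was not detected on any array.

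The balance among the D cyclin transcripts was also followed within each array, in a comparison chosen after these values were seen. The log2 difference between the brightest probes of Ccnd2 and Ccnd3 was 0.12, 0.11 and -0.13 on the knockout arrays, against 0.61, 0.60 and 0.55 on the wild-type arrays. The mean was 0.034 ± 0.14 in the knockout and 0.59 ± 0.032 in the wild type (SD, n = 3 each), a shift of -0.56 ± 0.084 (SE). The difference between Ccnd1 and Ccnd3 averaged -1.12 ± 0.053 in the knockout and -0.84 ± 0.066 in the wild type, and that between Ccnd1 and Ccnd2 -1.15 ± 0.15 in the knockout and -1.43 ± 0.065 in the wild type. For each of the 3 pairs the arrays of the genotypes did not overlap. That gives a 2-sided exact permutation p of 0.1, the smallest that 3 arrays against 3 can give, and 0.1 after adjustment over the 3 pairs. For the pairs with Ccnd3 this outcome was fixed in advance. After normalization the Ccnd1 and Ccnd2 probes were lower on every knockout array and the Ccnd3 probe was higher. The p-values of those pairs add nothing to the changes of the single probes. Under median scaling the shift between Ccnd2 and Ccnd3 was -0.51 with no overlap, and that between Ccnd1 and Ccnd2 was 0.18 with overlap (exact permutation p = 0.2). The size of such a difference depends on the probes as well as on the transcripts, and so does its shift between genotypes. The tested Ccnd1 probes changed by -0.13, 0.027 and 0.18, and the tested Ccnd3 probes by 0.15 and 0.37. For Ccnd2 the changes were -0.41, -0.38 and -0.59. Pairs of probes other than the brightest were not compared.

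The E cyclin gene Ccne1 was higher in the knockout. Its single probe had intensities of 252, 247 and 238 on the knockout arrays and of 211, 188 and 213 on the wild-type arrays, with every knockout array higher. The log2 levels were 7.67, 7.56 and 7.55 in the knockout and 6.91, 6.76 and 7.15 in the wild type, a change of 0.65 ± 0.11 (limma adjusted p = 0.0018). It passed under all 16 alternatives, with changes of 0.36 to 0.76. By their brightest kept probes, all 7 tested genes of a cell division list were higher on the same arrays, beside 20.6% of all genes. The other kept Top2a probe was not called higher, and of the 3 other kept Cdc20 probes 1 was. The part of cell division in the rise of Ccne1 was not tested. Ccne1 is a known E2F target, so its window is shown beside that of Cdkn2c; no E2F core match of the letters above stood in it.
Ccne1, chr7:38107491-38107740, minus strand: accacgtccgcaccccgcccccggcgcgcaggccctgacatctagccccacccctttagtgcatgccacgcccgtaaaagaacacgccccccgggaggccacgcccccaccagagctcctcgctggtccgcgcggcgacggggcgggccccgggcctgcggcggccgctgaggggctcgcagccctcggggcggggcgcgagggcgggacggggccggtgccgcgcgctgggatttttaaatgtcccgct
It was 76% G and C, more than 96.7% of all windows. Ccne2, which encodes the second E cyclin, had no overlap after normalization, with log2 levels of 5.88, 5.98 and 5.85 in the knockout and of 5.55, 5.71 and 5.51 in the wild type. Its raw intensities of 122, 126 and 118 in the knockout and of 125, 129 and 114 in the wild type did overlap and lay close to background. The change of 0.31 ± 0.095 passed (adjusted p = 0.0278), but the call was lost under 9 of 16 alternatives, among them the authors' log2 values (0.14, adjusted p = 0.114) and median scaling (0.13, adjusted p = 0.389).

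**Figure D3:**
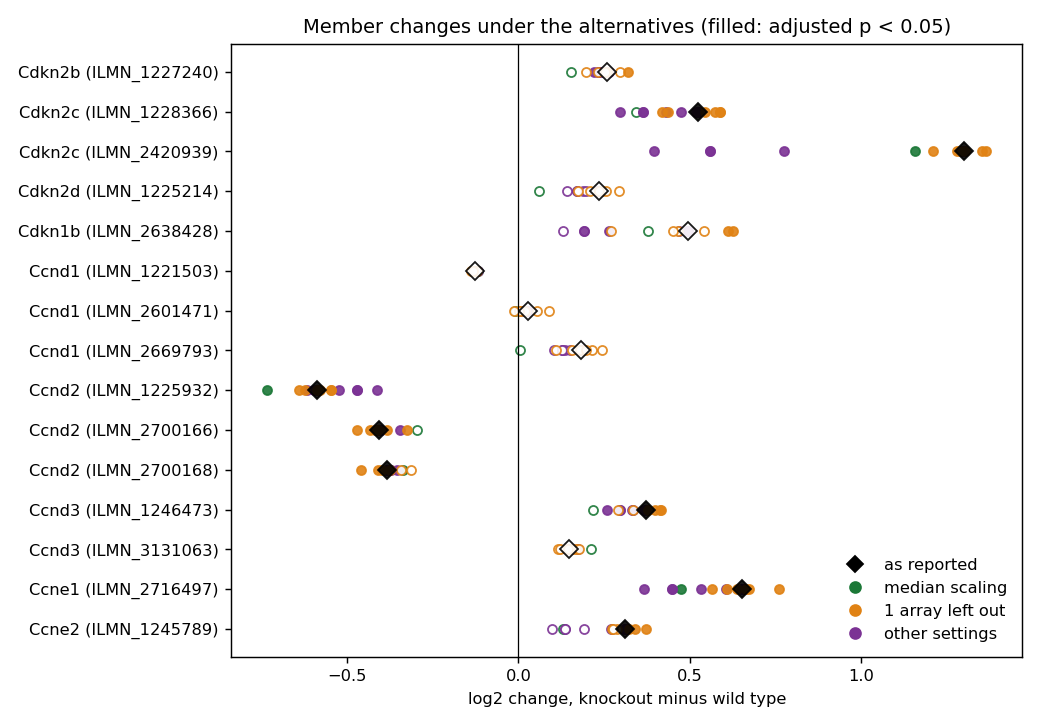
Log2 change (knockout minus wild type) of the 15 tested probes as reported (black diamonds) and under each alternative (circles: green for median scaling, orange for 1 array left out, violet for other settings); filled symbols passed at a limma adjusted p below 0.05. Ccne1, the larger Cdkn2c change and the Ccnd2 probe at -0.59 stay filled throughout, while Ccne2 is open under 9 of 16 alternatives.

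Beside these genes stood other genes of the cell cycle and their regulators, not all of them of G1. They were taken from 8 lists chosen with earlier results of these data known. Of 67 list genes with a probe, 55 were tested, each by its brightest kept probe. Of these, 10 were higher and 10 lower (36.4%), beside 39.7% of all genes, with a median change of -0.059 against 0.027. Under median scaling 6 were higher and 16 lower. By these probes the kinases themselves did not pass. Cdk2, the partner of E cyclins, changed by 0.027 ± 0.088 (adjusted p = 0.84), Cdk4 by -0.17 ± 0.11 (adjusted p = 0.242) and Cdk6 by -0.35 ± 0.13 (adjusted p = 0.0644). Of the other kept probes, 3 for Cdk2 and 1 for Cdk4, none passed in the direction of the brightest. The sign of the Cdk2 change turned under median scaling, and Cdk6 passed there (-0.48, adjusted p = 0.0111). In the list of kinases and their activators, 2 of 9 rose and 1 fell. These were the phosphatase genes Cdc25c (0.88 ± 0.098) and Cdc25a (-0.34 ± 0.098), and Ccnh (0.37 ± 0.098), a subunit of the kinase that activates CDKs. The size for Cdc25c was 0.37 without background correction (quantile-normalized log2, offset 50) and 0.49 in the authors' values, and it passed in both. The call of Cdc25a was lost without wild-type array B or C or knockout array E or F (adjusted p from 0.0598 to 0.0702), and that of Ccnh under median scaling (adjusted p = 0.138) and without wild-type array C (0.0594) or knockout array E (0.0505).

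Among the other Cip/Kip inhibitors, Cdkn1a, which encodes p21 and is induced by p53, was lower. Its brightest probe had intensities of 5591, 6382 and 5966 in the knockout and of 11918, 10191 and 8985 in the wild type, with no overlap, and its change was -0.85 ± 0.091 (adjusted p = 9.52e-05). The other 2 kept probes of the gene also passed in that direction. Cdkn1c, the gene of p57, changed by -0.15 ± 0.096 and did not pass (adjusted p = 0.258). Its single probe was very bright, with intensities of 24625, 24475 and 24810 in the knockout and of 25574, 23674 and 26000 in the wild type. Whether so bright a probe can still show a difference was not tested. In the list of ARF and the p53 axis, 1 of 2 tested genes fell: Mdm2, the p53 ligase that p19Arf holds back, at -1.49 ± 0.089 (adjusted p = 2.22e-06), with intensities of 1535, 1626 and 1663 in the knockout and of 5310.1, 4227 and 4151 in the wild type. Mdm2 is itself a p53 target.

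Of 11 tested genes of the Rb family and the E2F factors, 4 rose and none fell, or 36.4%, near the 39.7% of all genes. E2f2 rose most (1.49 ± 0.15, adjusted p = 7.07e-05), with intensities of 244, 211 and 188 in the knockout and of 146, 126 and 124 in the wild type. The size was 0.66 without background correction (quantile-normalized log2, offset 50) and 0.86 in the authors' values, and it passed in both. E2f3 (0.55 ± 0.099, with its other kept probe not passing), E2f1 (0.53 ± 0.092) and the pocket protein gene Rbl1 (0.34 ± 0.11) followed. The Rbl1 call was lost under 8 of 16 alternatives, with adjusted p up to 0.425. Rb1, named after its value was seen because Lpar6 lies inside it, changed by 0.23 ± 0.085 and did not pass (adjusted p = 0.0594); it passed under 6 of 16 alternatives. Rbl2 and E2f8 were not detected on any array.

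Of 8 tested genes for the turnover of p27 and of the D and E cyclins, 2 fell and none rose, or 25%, below the 39.7% of all genes. Fbxw7, whose product marks cyclin E for degradation, fell by 0.73 on the log2 scale (SE 0.12, adjusted p = 0.001), with intensities of 336, 434 and 335 in the knockout and of 688, 625 and 583 in the wild type. Skp2, whose product marks p27 for degradation, had a change of -0.46 ± 0.13 (adjusted p = 0.0196). It was detected on only 2 of 3 knockout arrays, and its call was lost under 7 of 15 alternatives. Without background correction (quantile-normalized log2, offset 50) the change was -0.12. Of the 2 tested genes among S phase and mitotic cyclins and Cdk1, Cdk1 rose (0.59 ± 0.10, adjusted p = 0.0017). The cyclin genes Ccna1, Ccna2 and Ccnb2 were not detected on any array by their probes.

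Of 16 tested regulators of the Ink4/Arf locus, 2 rose and 4 fell, or 37.5%, near the 39.7% of all genes. The falls were those of Id1 (-1.03 ± 0.094), an inhibitor of helix-loop-helix factors known to hold down p16Ink4a, of the T-box repressors of the locus Tbx2 (-0.70 ± 0.099) and Tbx3 (-0.46 ± 0.098), and of Dmtf1 (-0.41 ± 0.096), an activator of p19Arf. Of the 3 other kept probes of Tbx3, 2 passed in the same direction, and of the 3 others of Dmtf1, 1 did. The rises, named after their values were seen, were those of Twist1 (0.38 ± 0.11, adjusted p = 0.0206), a repressor of the Ink4/Arf response, and Ets2 (0.28 ± 0.088, adjusted p = 0.0337), an activator of p16Ink4a. The Ets2 call was lost under median scaling and without any 1 of the 6 arrays (adjusted p from 0.0541 to 0.160). That of Twist1 was lost under median scaling (0.0685), without wild-type array C (0.0747) and without knockout array D (0.0619). Of 5 tested transcription factors acting on D cyclins or p27, the AP-1 gene Fos rose (0.49 ± 0.12, adjusted p = 0.0093) and Foxo3, which activates Cdkn1b, fell (-0.45 ± 0.12, adjusted p = 0.0144). The Foxo3 call was lost without wild-type array A (adjusted p = 0.0553).

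**Figure D4:**
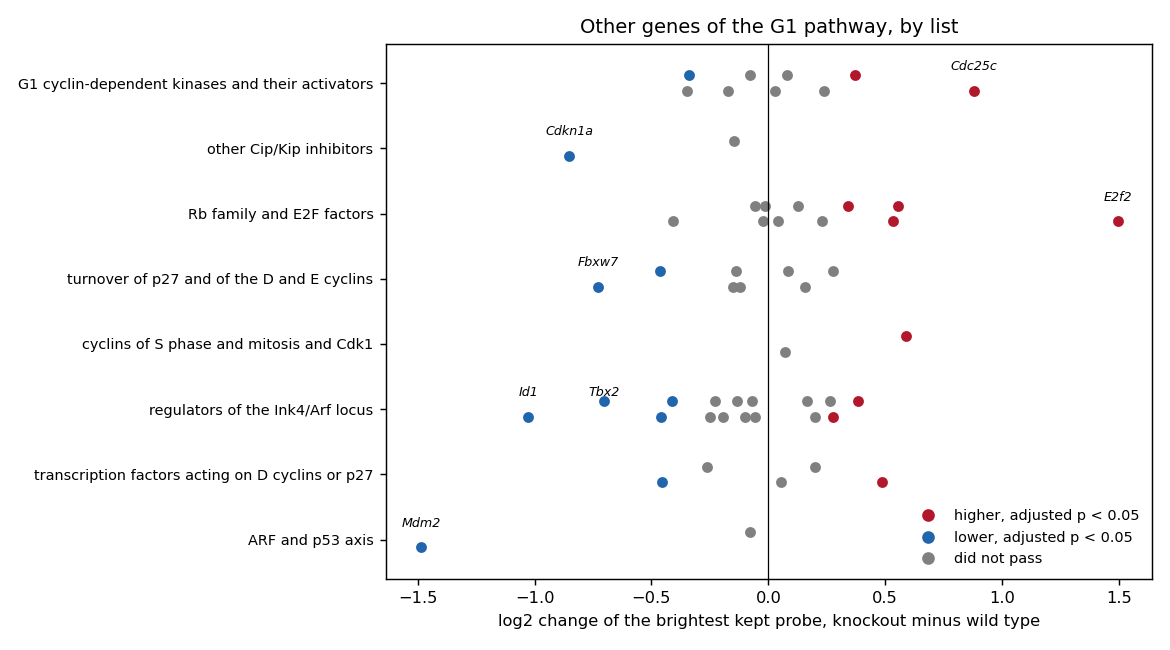
Log2 change (knockout minus wild type) of the brightest kept probe of each of 55 genes, 1 point a gene. The 8 lists hold genes of G1, S phase and mitosis and their regulators. Red points were higher and blue points lower at a limma adjusted p below 0.05, and grey points did not pass. E2f2 is farthest to the right at 1.49 and Mdm2 farthest to the left at -1.49.

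Markers of cell division and of other cell types differed between the same arrays. Their lists were chosen with earlier results of these data known. Each gene was given by its brightest kept probe. Other kept probes of the same genes did not all pass in the same direction, as for Top2a, Cdc20, Pparg and Comp. Over all genes, 20.6% were higher and 19.1% lower. The 7 tested genes of the cell division list, all higher in the knockout, had a summed background-corrected level of 10950 to 11660 against 7335 to 7841 in the wild type; Bub1 was not detected on any array. Neuronal markers were lower in 10 of 10 tested genes, with sums of 1260 to 1385 in the knockout and 9605 to 9878 in the wild type, and Tubb3 and Snap25 were not detected on any array. Cartilage markers were lower in 9 of 10, with sums of 4157 to 4233 in the knockout and 17610 to 18010 in the wild type. Each was detected on some array, but Col10a1 on no knockout array, so it passed the filter through the wild type alone. With 2 genotypes only, every gene lower in the knockout, Ccnd2, Cdkn1a and Mdm2 among them, fell on the same arrays by design. Adipocyte markers were higher in 9 of 9 tested genes (sums of 10420 to 12140 in the knockout, 3369 to 3958 in the wild type). Fabp4 and Retn were not detected. Adipoq, Cidea, Cidec and Plin1 were detected on no wild-type array. They passed the filter through the knockout alone, which fixed their direction in advance. Skeletal muscle markers were higher in 8 of 8 (10690 to 11360 in the knockout, 5949 to 6123 in the wild type). Epithelial markers were higher in 7 of 7 (2152 to 2271 in the knockout, 705.6 to 720.1 in the wild type), with Epcam not detected. Ckm and Esrp1 from these lists also passed the filter through the knockout alone. Of 6 tested macrophage and blood markers, 1 was higher and 3 lower (4493 to 4741 in the knockout, 9802 to 10600 in the wild type), and Ptprc was not detected. The lower genes were the globins Hba-a1 and Hbb-y and the macrophage gene Fcer1g. C1qa was higher, and Csf1r and Adgre1 did not pass. Each sum weighs the brightest genes of its list most, such as Lpl among adipocyte markers and Col2a1 among cartilage markers. The part of these markers in the changes of the CDK inhibitors and cyclins was not tested.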

How the data were processed

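RNA was labelled as biotinylated cRNA for Illumina bead arrays, per the labels' protocols. The authors deposited a table of uncorrected intensity with a detection p-value beside each. A further deposited table holds log2 values, and the submitters' processing notes name limma; their correction and normalization are not given in sources used here. Group means of those log2 values differed by at most 0.0039 from log2 intensities after quantile normalization, so they are neither centred nor turned; all column medians were 6.54.

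The intensity columns name the genotype and a letter without any replicate number, and were assigned by genotype. Background was corrected with normexp, with negative control values inferred from the detection p-values, followed by quantile normalization and log2 with an offset of 16 (neqc, limma 3.58.1, R 4.3.3). The offset and background correction change the size of differences in dim probes. Probes with detection p below 0.05 on at least 3 of 6 arrays were kept (19802 of 45281, or 43.7%). They were tested with lmFit and eBayes (4 residual degrees of freedom, 5.27 prior). The p-values were adjusted by Benjamini-Hochberg across the kept probes. Genes were named from GEO's platform annotation; RefSeq's gene table changed 0 symbols.

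The members and lists were chosen with earlier results of these data known. Every member probe is reported. Of each list, up to 4 called genes with the largest change are named, and Cdk2, Cdk4, Cdk6 and Lpar6 in any case. Summed marker levels are sums of background-corrected values without the offset. The fit was tested on simulated data. Alternatives covered background, scaling, offset, filter, variance moderation, array weights, a replicate block and leaving out each array. The number of arrays limits the precision.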

Additional observations from a re-analysis of the deposited data

How the results depend on the processing

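Over all kept probes, calls numbered 6738 to 8318 under the 10 alternatives that keep every array (6798 with all 45281 probes tested), against 7510 as reported, and 6081 to 7030 with 1 array left out. For the CDK inhibitors and cyclins, median scaling gave 4 calls in place of 8, all 4 among the 8; the other alternatives that keep every array gave 8 or 9, and leaving out 1 array gave 5 to 9. For the pathway lists the count was 19 to 25 in place of 20, and 14 to 19 with 1 array left out. The sign turned in 2 genes, neither of them called: the second Ccnd1 probe gave -0.0087 under median scaling and -0.014 without knockout array E (up to 0.090 with another array left out), and Cdk2 gave -0.0066 under median scaling and -0.012 without wild-type array B (up to 0.067). Over the probes named, 560 results under alternatives kept their direction and side of the threshold, 49 lost the call and 22 gained one. The replicate block could be run only with the authors' log2 values, whose columns carry replicate numbers. It gave 9 calls among the CDK inhibitors and cyclins, 8190 over all probes and 23 in the lists, against 8, 8281 and 24 for the same values without the block. Deviations of same-numbered arrays correlated at -0.048, 0.020 and -0.054, so the numbers were not taken as pairs. Signal over background limits Cdkn2a and Cdkn1b, whose probes lay at or near it. It also limits sizes, as seen without background correction (quantile-normalized log2, offset 50). That setting gave 0.30 for the RefSeq Cdkn2c probe, 0.30 for E2f3, 0.16 for Rbl1, -0.40 for Tbx2, -0.19 for Foxo3 and -0.090 for Cdk6. Each was over 1.5 times smaller than reported, as for the Cdkn2c clone probe, Cdkn2d, the third Ccnd1 probe, Ccne1, Ccne2, Cdkn1b, E2f2, Cdc25c and Skp2.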
